A study of Mus musculus with 12 samples.

Results

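The genes examined here carry the names of protamines, transition proteins and spermatid linker histones, and are 7 of the 21938 protein-coding genes and the 55413 annotated genes of GENCODE M21. They were 3 genes named as protamines (Prm1, Prm2 and Prm3), both transition protein genes (Tnp1 and Tnp2) and 2 spermatid linker histone genes (Hils1 and H1fnt). The question was in which substage of meiotic prophase I transcription initiation was first called at genes whose products act later, in spermatids. The members were taken by name, and every called initiation site with an edge under 1000 bp, and separately under 5000 bp, from any of their annotated transcription start sites (TSSs) was collected.

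The data were leChRO-seq libraries, a run-on assay that maps engaged RNA polymerases in isolated chromatin, from wild-type (WT) mice. The 12 libraries fell into 4 of leptonema/zygonema, 4 of pachynema and 4 of diplonema, made from testis cells of adult animals, with no treatment named for any group. The study used mice on a C57Bl/6J or DBA/2J background, and the strain behind these libraries is not stated. The cells were separated by size and density (STAPUT), which enriches a substage without fully purifying it. The authors merged the 4 libraries of a substage and called initiation sites with dREG, which finds the paired pattern of run-on reads on opposite strands that marks promoters and enhancers and gives each site a score. There is 1 peak list for each substage, of 71107 peaks (leptonema/zygonema), 68352 peaks (pachynema) and 38603 peaks (diplonema). No read counts accompany the peaks, and the depth behind each list was not analysed here. They hold no replicates, so no value below has a replicate spread and no test between substages was made. The score is not scaled between lists. A peak has no strand, and its score does not measure how much RNA a gene makes.

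During spermiogenesis, the haploid phase that follows meiosis, nucleosomes are taken apart and DNA is repacked around small basic proteins. Testis histone variants and linker histones enter first, the transition proteins TNP1 and TNP2 follow, and the arginine-rich protamines PRM1 and PRM2 finally fill the sperm head. The mRNAs of these genes are known to be abundant in round spermatids and to be stored before they are translated, and the transcription factor CREM, acting at cAMP response elements, is a known activator of several of them.

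Prm1, Prm2, Prm3 and Tnp2 lie together on chromosome 16 within a cluster on the minus strand, Tnp1 lies on chromosome 1 (minus strand), Hils1 on chromosome 11 (plus strand) and H1fnt on chromosome 15 (minus strand). Prm3, Hils1 and H1fnt have a single annotated exon, as do 6.01% of protein-coding genes. The 150 bases before the RefSeq start are printed for members whose stretch held a match to a promoter motif, because they set the promoters that carried a peak (Prm1, Tnp1 and Hils1) beside those that carried none (Prm2 and Prm3). Each is from RefSeq on GRCm38.p6, read 5′ to 3′ along the gene: Prm1 at chr16:10796824-10796973 (minus strand), Tnp1 at chr1:73015900-73016049 (minus strand), Hils1 at chr11:94967443-94967592 (plus strand), Prm2 at chr16:10792106-10792255 (minus strand) and Prm3 at chr16:10790915-10791064 (minus strand). Capitals mark the motif matches that lie wholly inside the stretch.
Prm1: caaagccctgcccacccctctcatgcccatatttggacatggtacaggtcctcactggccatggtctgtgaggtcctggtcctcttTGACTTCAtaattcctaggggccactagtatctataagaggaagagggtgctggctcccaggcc
Tnp1: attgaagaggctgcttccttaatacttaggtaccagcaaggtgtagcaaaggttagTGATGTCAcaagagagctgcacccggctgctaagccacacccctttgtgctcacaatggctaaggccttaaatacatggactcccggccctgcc
Hils1: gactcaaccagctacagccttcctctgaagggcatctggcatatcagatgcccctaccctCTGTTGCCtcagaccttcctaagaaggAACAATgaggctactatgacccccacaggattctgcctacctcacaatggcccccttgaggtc
Prm2: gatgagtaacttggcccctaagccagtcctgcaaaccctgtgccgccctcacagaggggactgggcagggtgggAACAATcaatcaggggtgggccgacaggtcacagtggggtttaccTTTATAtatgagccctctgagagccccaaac
Prm3: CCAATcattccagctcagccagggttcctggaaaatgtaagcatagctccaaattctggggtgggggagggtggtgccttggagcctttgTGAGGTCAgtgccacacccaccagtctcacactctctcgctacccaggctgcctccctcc

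Both strands of the window from 250 bases before to 50 bases from the start on were searched in all 7 members and in 21238 protein-coding windows. The capitals in Prm1 (TGACTTCA, positions -64 to -57 from the start) and Tnp1 (TGATGTCA, -94 to -87), and the second capitals in Prm3 (TGAGGTCA, -60 to -53), match TGANNTCA, the outline of a cAMP response element with any central pair. This pattern was chosen after the sequences were seen, and 13.2% of windows hold it. Hils1 also held it, at -7 to 0, across the start and so outside the printed bases. The full element TGACGTCA, held by 2.24% of windows, was in none of the 7. Its shorter form TGACG (23.6%) was in H1fnt alone, at -180 to -176.

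Prm2 held the TATA box TATAAA (12.6% of windows) on the opposite strand, printed as TTTATA at -31 to -26, and the SOX-type motif AACAAT (9.05%) at -76 to -71. Hils1 held CTGTTG, a match to the MYB core CNGTTG (34.1%), at -90 to -85, overlapping the RFX half-site GTTGCC (12.7%) at -88 to -83, and AACAAT at -63 to -58. The CCAAT box CCAAT (38.2%) was in Prm3 at -150 to -146 and, on the opposite strand, in Hils1 at -203 to -199. None of these letters was in the Tnp2 window. Apart from the cAMP outline no loosened form was searched, so TATA-like letters, such as tataag in Prm1 and tatataa in Tnp2, were not counted. A match is a description of letters and was not tested as a binding site.

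The windows of all 7 members were poor in CpG, with 0 in Hils1, 1 in Prm1, 3 in Prm2, 4 in Prm3, 4 in Tnp2, 6 in Tnp1 and 6 in H1fnt, against a median of 13 over protein-coding windows. GC content was less distinct, from 46.7% in Hils1 to 57% in Prm3 against a median of 56.3%. Promoters this poor in CpG were seldom called. Of 7585 protein-coding windows with at most 6 CpG, the highest number in a member, a peak lay under 1000 bp of the RefSeq start in 18.6% in leptonema/zygonema, 18.3% in the pachynema list and 14% in the diplonema list. The corresponding shares of the 13653 windows with more CpG were 77.3%, 78.1% and 67.5%. By the same RefSeq starts, 4 of the 7 members were called in each list. The limit of 6 CpG came from the members themselves, so the lower shares are not an independent background for that count. Over all protein-coding genes, by GENCODE starts, the shares called under 1000 bp were 60.2%, 60.5% and 51.6%, near which the 4 of 7 stood.

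Initiation at 5 of the 7 genes was already called in leptonema/zygonema, the earliest substage sampled. Prm1, Prm2, Tnp1, Hils1 and H1fnt each had a peak under 1000 bp from an annotated TSS in each of the 3 lists. No member was first called in pachynema or in diplonema, and Prm3 and Tnp2 were called in no list. By the same rule 60.2% of protein-coding genes were called in leptonema/zygonema, 60.5% in the pachynema list and 51.6% in the diplonema list, a background near which the 5 of 7 stood. Of protein-coding genes, 60.2% were first called in leptonema/zygonema, 3.53% in the pachynema list and 0.433% in the diplonema list, and 35.9% in none. Over all annotated genes, non-coding ones included, the shares called were 34.1%, 34.4% and 28.1%. Because no substage before leptonema/zygonema was measured, an earlier start of initiation at these 5 genes cannot be told apart from a start within it. Nor can initiation in spermatocytes be told apart from that in spermatids left in a fraction, as described below.

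The call at Prm2 differed in kind from the other 4. In each list a peak covered the TSS of Prm1, Tnp1, Hils1 and H1fnt, as it did for 45.7% of protein-coding genes. No peak covered a TSS of Prm2, whose call rested on a second annotated transcript that begins beside Prm1. With RefSeq starts, or with a peak required to cover the TSS, 4 of 7 members were called in each list, and all 4 were again first called in leptonema/zygonema.

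Tnp1 encodes transition protein 1, which holds the DNA of condensing spermatids between histones and protamines. Its 2 exons run from 73015074 to 73015909 on chromosome 1. The peak over its TSS spanned 73015551 to 73016220 in leptonema/zygonema, with a dREG score of 0.981. In pachynema it spanned 73015591 to 73016300 and scored 0.956, and in diplonema 73015671 to 73016270 and scored 1.023. The same peaks covered the TSS of 1700027A15Rik, an antisense gene on the plus strand that starts 127 bp away. Since peaks carry no strand, initiation toward Tnp1 and toward 1700027A15Rik cannot be told apart in these lists.

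Weaker peaks followed downstream of the TSS. That of leptonema/zygonema, at 73014991 to 73015530 (dREG score 0.294), ran past the 3′ end of Tnp1, and that of diplonema, at 73015231 to 73015650 (dREG score 0.412), lay inside the gene. A further site lay beyond the 3′ end of the gene, with its nearer edge 2719 bp (leptonema/zygonema), 2759 bp (pachynema) and 2819 bp (diplonema) from the TSS. Its dREG score was 0.984 in leptonema/zygonema, level with that of the Tnp1 promoter in the same list. The site scored 0.891 in pachynema and 0.49 in diplonema, where the promoter scored 1.023. Within their own lists these scores of the downstream site exceeded or equalled 79.4%, 76.7% and 44.4% of all peaks. Near Tnp1, 2 weak peaks overlapped no other list, 1 of leptonema/zygonema 3429 bp downstream of the TSS (dREG score 0.392) and 1 of diplonema 2109 bp downstream (dREG score 0.309).

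Hils1 encodes a linker histone of the spermatid nucleus. Its 1 exon (94967593 to 94968456, chromosome 11) lies on the plus strand inside an intron of Sgca, a sarcoglycan gene on the opposite strand, and no annotated exon of Sgca overlaps it. The peak over its TSS had the highest score of any member in each list. The leptonema/zygonema peak spanned 94967291 to 94967870 and scored 1.19, the pachynema peak spanned 94967301 to 94967950 and scored 1.136, and the diplonema peak spanned 94967251 to 94967930 and scored 1.126. The 3 peaks thus nearly coincided.

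Around Hils1 the lists differed only in weak peaks. One in the 3′ part of the gene was called in leptonema/zygonema (dREG score 0.394) and pachynema (dREG score 0.335) and had no counterpart in diplonema. Others, 3828 bp or more downstream of the Hils1 TSS, were called in diplonema (dREG score 0.312) and in pachynema (dREG scores 0.405 and 0.383). These lay nearest to annotated starts of Sgca, at 745 bp in diplonema and at 1045 and 653 bp in pachynema.

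H1fnt, named H1f7 in RefSeq, encodes a second linker histone of round and elongating spermatids that is needed for normal nuclear condensation. Its 1 exon runs from 98255986 to 98257293 on chromosome 15. Over its TSS, leptonema/zygonema had a peak at 98256851 to 98257660 that scored 0.942, pachynema at 98256971 to 98257730 that scored 0.839, and diplonema at 98257131 to 98257720 that scored 0.849. The downstream edge of this peak lay 442 bp inside the gene in leptonema/zygonema, 322 bp in pachynema and 162 bp in diplonema, while its upstream edge stayed between 98257660 and 98257730.

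The body of H1fnt held further peaks in every list. In diplonema there were 3, with dREG scores of 0.369, 0.292 and 0.462, and the last ended 1122 bp from the TSS. In leptonema/zygonema a peak of dREG score 0.697 crossed the 3′ end of the gene, 1213 to 1782 bp from the TSS, and in pachynema a peak of dREG score 0.451 covered nearly the same bases. An upstream peak 1268 bp before the TSS was called in leptonema/zygonema alone (dREG score 0.524). Past the 3′ end of the gene, 2 peaks of pachynema overlapped no peak of another list, 1803 bp (dREG score 0.301) and 2763 bp (dREG score 0.324) from the TSS.

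**Figure D1:**
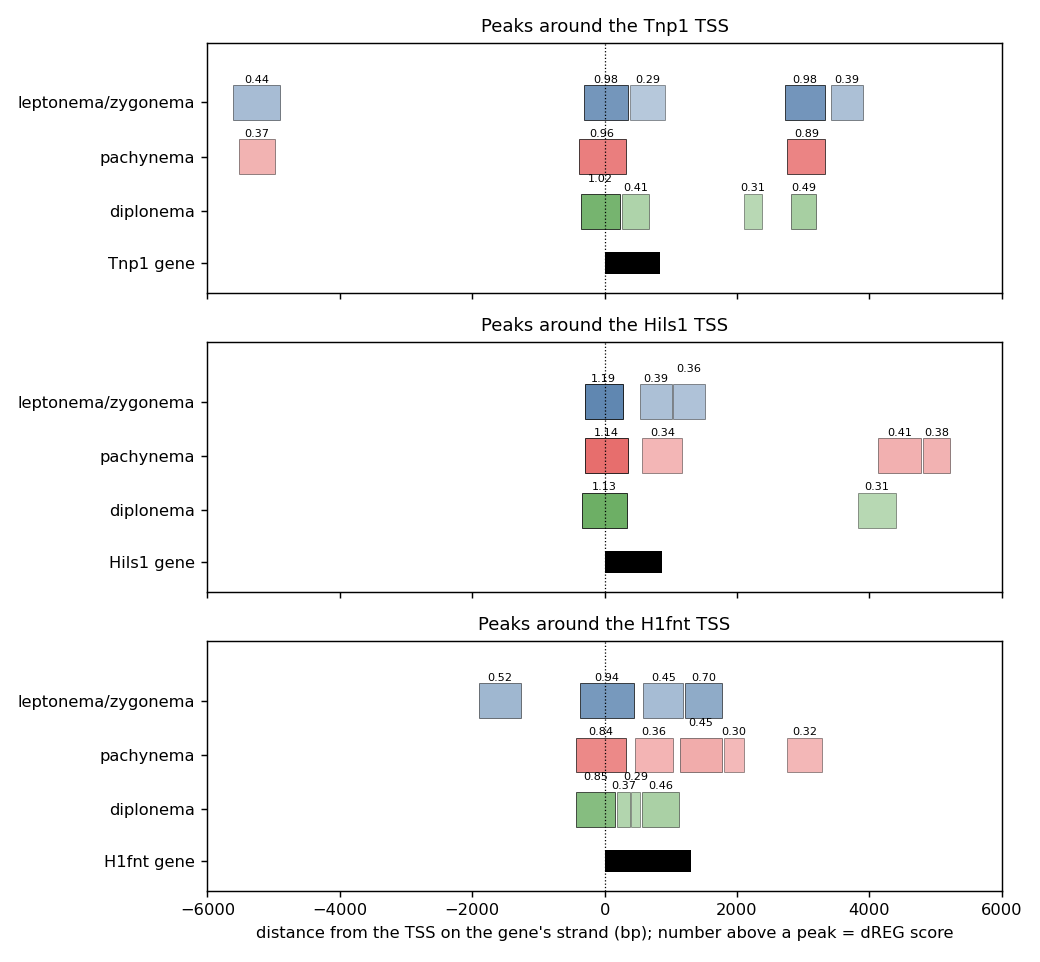
Called dREG peaks around the TSS of Tnp1, Hils1 and H1fnt in the 3 substage lists, drawn against distance from the TSS along the gene (bp); the number above a peak is its dREG score, darker fill is a higher score, the black bar is the gene and the dotted line its TSS. Every list has a peak over each TSS, and the site 2719 to 2819 bp downstream of the Tnp1 TSS scores 0.984, 0.891 and 0.49.

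Prm1 encodes protamine 1, the arginine-rich protein that replaces the transition proteins. The transcript Prm1-201 (2 exons) runs from 10796326 to 10796886 on chromosome 16. Its TSS lay in a peak at 10796721 to 10797110 in leptonema/zygonema, which scored 0.676. The matching peak of pachynema, at 10796741 to 10797110, scored 0.561, and that of diplonema, at 10796551 to 10797160, scored 0.747. These were the lowest scores among the 4 members with a covered TSS in each list. In leptonema/zygonema and pachynema a separate, weaker peak followed downstream over the gene, at 10796261 to 10796700 (dREG score 0.481) and 10796361 to 10796720 (dREG score 0.47). In diplonema a single peak, 610 bp wide, took in the start and the first part of the gene.

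A second annotated transcript, Prm1-202, starts at 10805839, and the nearest peak was 5569 bp away in leptonema/zygonema, 5439 bp in pachynema and 5999 bp in diplonema. Upstream of Prm1-201, peaks lay between 10798931 and 10800400 in every list, in the body of the antisense gene Gm46563. The highest there scored 0.791 in leptonema/zygonema and 0.636 in pachynema, above the Prm1 promoter in the same lists. In diplonema the highest scored 0.493, below the Prm1 promoter.

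Prm2 encodes the precursor of protamine 2, the second main protamine of mouse sperm. The transcript Prm2-201, whose 2 exons run from 10791380 to 10792105, had no peak near its start. The nearest lay 4156 bp away in leptonema/zygonema, 4256 bp in pachynema and 4446 bp in diplonema, and each of these was a peak over Prm1. The longer transcript Prm2-202 starts at 10796134, 752 bp from the Prm1-201 start and just past the 3′ end of Prm1. Its TSS was 127, 227 and 417 bp from the nearest peak in leptonema/zygonema, pachynema and diplonema, and these too were the peaks in and over Prm1. The call of Prm2 under 1000 bp was thus a call of the same peaks as Prm1, and its best score equals that of Prm1 in each list.

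Prm3, a short single-exon gene (10790505 to 10790914) that encodes a small acidic protein despite its name, was not called at either distance. Its nearest peak lay 5347 bp away in leptonema/zygonema, 5447 bp in pachynema and 5564 bp in diplonema. Tnp2, the gene of the second transition protein (2 exons, 10787936 to 10788660), was not called under 1000 bp. It was called under 5000 bp in each list, at 4130 bp in leptonema/zygonema, 3330 bp in pachynema and 3310 bp in diplonema. Those peaks were nearer to the TSS of Socs1, a suppressor of cytokine signalling, at 1006, 206 and 186 bp. When only peaks nearest to a member TSS were counted, Tnp2 was called in no list at either distance.

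The peaks that gave the Tnp2 call changed between the lists. In leptonema/zygonema there was 1, at 10784141 to 10784530 (dREG score 0.413, deposited p-value 0.0114). In pachynema there were 3, with dREG scores of 0.659, 0.673 and 0.281, and in diplonema there were also 3, with dREG scores of 0.627, 0.811 and 0.343. Peaks with a dREG score of at least 0.5, peaks with a p-value of at most 0.01, and lists shortened to the 38603 highest-scoring peaks each left Tnp2 uncalled under 5000 bp in leptonema/zygonema. Under these settings Tnp2 was first called, through the Socs1 peaks, in pachynema.

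With the wider distance, 6 of 7 members were called in each list, beside 65.8% of protein-coding genes in leptonema/zygonema, 66.0% in the pachynema list and 56.0% in the diplonema list. A stretch without any peak spanned the middle of the cluster in all 3 lists. It measured 11730 bp in leptonema/zygonema, 11030 bp in pachynema and 11200 bp in diplonema, and held 4 member TSSs, those of Tnp2, Prm3, Prm2-201 and Prm2-202. Stretches of this length were common, since 42.8%, 43.8% and 51.1% of the gaps between peaks on chromosome 16 were at least as long.

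**Figure D2:**
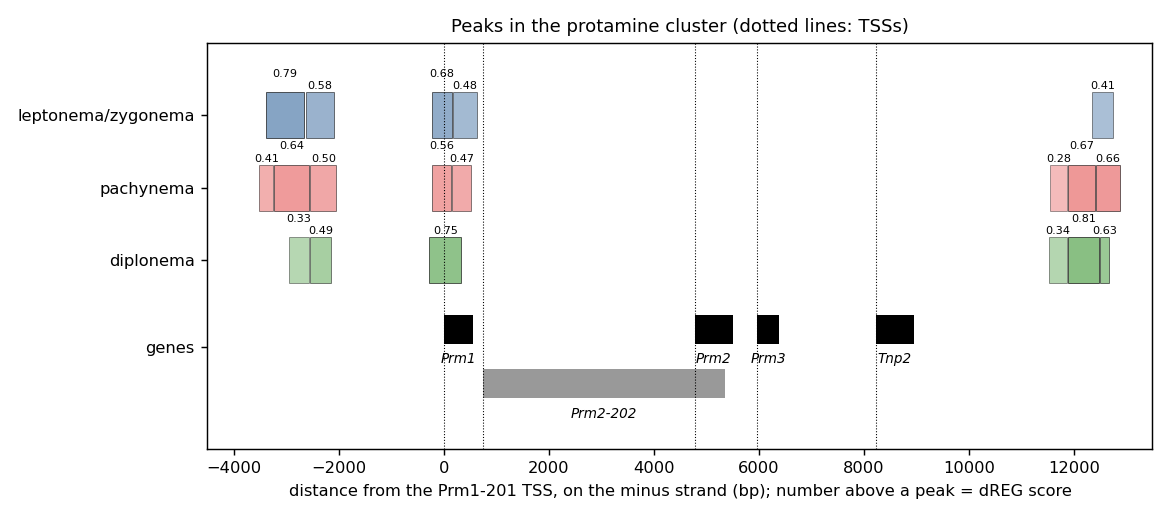
Called dREG peaks in the protamine cluster in the 3 substage lists, drawn against distance from the Prm1-201 TSS along the minus strand (bp); the number above a peak is its dREG score, black bars are the main transcript of each gene, the grey bar is Prm2-202 and dotted lines are their TSSs. Peaks sit at and upstream of Prm1 and downstream of Tnp2, near Socs1 (not drawn), and none lies in the 11030 to 11730 bp between.

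Peaks near the members overlapped between the lists, as most promoter peaks did. The leptonema/zygonema list had 8 peaks under 1000 bp from a member TSS, that of pachynema 7 and that of diplonema 8, which joined into 5 regions, and all 23 overlapped a peak of another list by at least 1 bp. With an overlap of at least 50% of both peaks, 21 of 23 did. Of all peaks under 1000 bp of a protein-coding TSS, 92.8% overlapped another list by at least 1 bp and 80.3% by at least 50%, so the members' peaks stood near the general share. Under 5000 bp there were 17, 20 and 16 peaks, which joined into 17 regions. At the 1000 bp limit, the farthest peaks inside were one of H1fnt at 583 bp in leptonema/zygonema (dREG score 0.452) and one of Hils1 at 568 bp in pachynema (dREG score 0.335). The nearest outside were one of Hils1 at 1038 bp in leptonema/zygonema (dREG score 0.363) and one of H1fnt at 1133 bp in pachynema (dREG score 0.451). No member's call hung on these 4 peaks, because each gene also had a peak over its TSS.

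Because scores are not scaled between lists, each gene's best score was ranked among the called protein-coding genes of its own list, as the percentage of genes ranked at or below it. Hils1 stood highest, at the 73.2 percentile in leptonema/zygonema, 65.8 in the pachynema list and 87 in the diplonema list. Tnp1 stood at 42.1, 42.4 and 73.9, H1fnt at 38.5, 32.2 and 51.5, and Prm1, with Prm2, at 19.6, 14.7 and 40.2. The order Hils1, Tnp1, H1fnt, Prm1 was the same in each list. All 4 promoters ranked highest in diplonema, although the scores themselves were highest in leptonema/zygonema for Hils1 and H1fnt. These are ranks of an initiation score, which give neither the amount nor the direction of change of transcription along a gene.

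The diplonema list holds fewer genes, so the ranks were repeated among the 10851 protein-coding genes called in all 3 lists, a choice made after the ranks were seen. Prm1 then stood at the 10.5 percentile in leptonema/zygonema, at 4.69 in pachynema and at 37.9 in diplonema. Tnp1 stood at 32, 30.6 and 72.8, Hils1 at 67.9, 58.3 and 86.4, and H1fnt at 28.2, 19.4 and 49.6. The diplonema percentile exceeded that of pachynema by 33.2 points for Prm1, 42.3 for Tnp1, 28.1 for Hils1 and 30.3 for H1fnt. Each difference was at or above that of 92.3% of the genes, and the largest, of Tnp1, stood at the 98.2 percentile of all differences. Genes of like pachynema rank were not compared separately, and a low rank, such as 4.69 for Prm1, leaves more room to rise than to fall. Of the 10851 genes, 40.5% had their highest percentile in diplonema, and the median difference over all of them was 1.1 points. With 1 merged list per substage there is no replicate spread against which to set these ranks. The diplonema list was also the shortest, and the part of this in the ranks of genes was not tested.

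**Figure D3:**
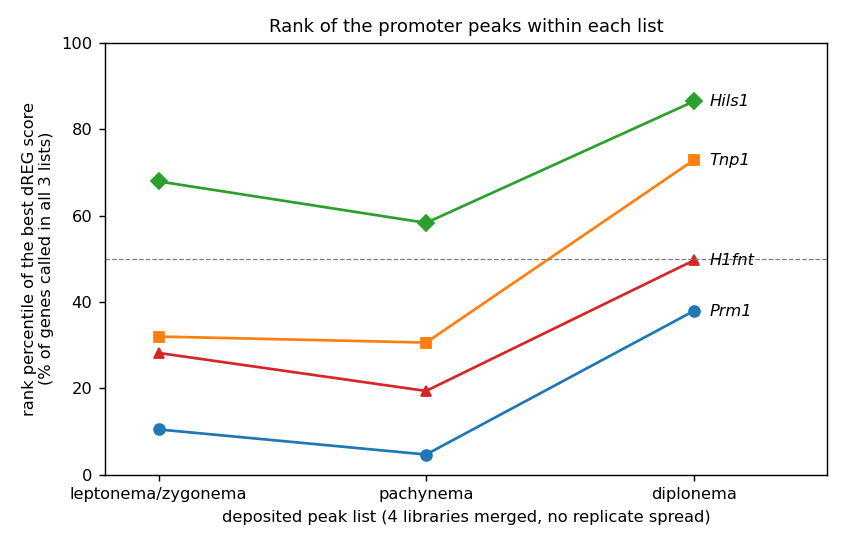
Rank percentile of the best dREG score under 1000 bp of a TSS (y axis, % of the 10851 protein-coding genes called in all 3 lists) for Prm1, Tnp1, Hils1 and H1fnt in each substage list (x axis); each point is 1 list of 4 merged libraries, with no replicate spread, and the dashed line is the median gene. Prm2 has the Prm1 values. All 4 promoters rank lowest in pachynema and highest in diplonema, which is a rank within each list and not a level of transcription.

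The protein-coding genes whose ranks over the 3 lists came closest were Trip11 (largest difference 2.08 percentile points) and Cnppd1 (2.66) for Tnp1, Tdrd3 (1.73) and Zfp644 (2.26) for Hils1, and Adamts9 (1.28) and Zbtb14 (1.71) for H1fnt. For Prm1 they were Prm2, through the shared peaks, and Rcc2 (3.24). Likeness over 3 values is a description of rank and nothing more.

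Other genes of the histone-to-protamine transition were called as early. Among testis and replacement histone variants, 12 of 14 were called in leptonema/zygonema, 12 in the pachynema list and 8 in the diplonema list, and none was first called after leptonema/zygonema. Hist1h2aa and Hist1h2ba, the testis H2A and H2B genes that share a promoter peak, had best dREG scores of 1.087, 1.107 and 1.145. Hist1h1t, the testis linker histone of spermatocytes, scored 0.874 and 0.701 and was not called in diplonema. H2afb1 (0.764 and 0.444), H2al3 (0.904 and 0.424) and Hist3h2ba (1.106 and 1.017) also had no call there, and H2afb2 and H2al2b had none in any list. Several of these, among them H2afb1, H2afb2 and H2al3 on the X chromosome and H2al2b on the Y, have close copies between which reads may be split. Their calls, and their missing calls, may be uncertain for that reason, which was not tested.

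Factors that open or remodel spermatid chromatin were called in 20 of 20 cases in leptonema/zygonema, 19 in the pachynema list and 18 in the diplonema list. Brdt, whose product binds acetylated histones, had best dREG scores of 1.268, 1.226 and 0.981, and Chd5, a chromatin remodeller, 1.187, 0.785 and 0.742. Rnf8, a ubiquitin ligase, scored 1.002, 1.142 and 0.637. Pygo2 was called in leptonema/zygonema alone (0.407), and Ctcfl was not called in diplonema (0.94 and 0.674 before). All 16 regulators of spermatid transcription and translation were called in each list. Crem scored 1.332, 1.333 and 1.229, Tbpl1, a relative of the TATA-binding protein, 1.218, 1.155 and 1.114, and Taf7l, a testis form of a general transcription factor subunit, 1.014, 1.115 and 1.088.

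Other spermatid genes were called in 19 of 20 cases in leptonema/zygonema and 18 of 20 in pachynema and diplonema. Acrv1, an acrosomal protein gene, scored 1.316, 1.297 and 0.972, Spaca1, another, 1.319, 1.245 and 1.148, and Tssk6, a kinase of spermatids, 0.809, 0.891 and 0.375. Tssk2 was called in leptonema/zygonema alone (0.358), and Tssk1 in no list. In the ranking over genes called in all 3 lists, 8 of 18 spermatid genes, 12 of 16 regulators, 8 of 18 exchange factors and 4 of 7 histone variant promoters (Hist1h2aa and Hist1h2ba counted as 1) ranked highest in diplonema, against all 4 distinct promoters of the members (Prm2 shares the Prm1 peaks) and 40.5% of the 10851 genes. The median difference of diplonema over pachynema was 5.16 points in the spermatid genes, 17.1 in the regulators, 3.78 in the exchange factors and 18.8 in the histone variants, against 31.8 over the 4 member promoters and 1.1 over all 10851 genes. Of the leptotene and zygotene markers, 5 of 7 ranked highest in diplonema (median difference 9.49 points), and of the pachytene and diplotene markers likewise 5 of 7 (20.3 points). Of the spermatogonial markers, 1 of 4 ranked highest in diplonema (median difference -15.5 points), and 2 of 4 ranked higher there than in pachynema. Of the Sertoli cell markers, 1 of 2 ranked highest in diplonema (-1.34 points), too few to give a direction. No marker of Leydig cells or macrophages was called in all 3 lists.

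Round and elongating spermatids, in which the members are known to be most abundant, are among the cells a STAPUT fraction can hold. The paper reports that elongated spermatids made up most of the contaminating cells in every fraction. The spermatid genes above are also the markers of those cells, and 19, 18 and 18 of 20 were called in the 3 lists in order of substage, at median rank percentiles of 75.6, 74.9 and 65.8. The highest-scoring was Cabs1 in leptonema/zygonema (1.349), Acr in pachynema (1.353) and Pgk2 in diplonema (1.311), and Pgk2 is also on the list of pachytene and diplotene markers. Spermatids in a fraction and initiation in its spermatocytes therefore cannot be told apart from these lists, and the part of spermatids in the members' calls was not tested.

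Markers of the labelled substages were called as well. Of 8 leptotene and zygotene markers, 8, 8 and 7 were called in the same order, with the same counts for 8 pachytene and diplotene markers. A call alone therefore did not set the substages apart. Of 8 spermatogonial markers, 5, 6 and 4 were called. Zbtb16, Kit, Dmrt1 and Etv5 were called in every list, with dREG scores of 0.845, 1.037, 1.071 and 1.053 in leptonema/zygonema and 0.685, 0.343, 0.332 and 0.733 in diplonema. Lin28a was called in leptonema/zygonema and pachynema, Ret in pachynema, and Gfra1 and Nanos3 in no list. Of 8 Sertoli cell markers, 2, 4 and 3 were called. Sox9 (0.385, 0.652 and 0.564) and Gata4 (0.925, 0.946 and 0.482) were called in every list, Wt1 in pachynema (0.408) and diplonema (0.311), and Cldn11 in pachynema (0.695). Amh, Gata1, Rhox5 and Fshr were called in none. Of 6 Leydig cell markers, 0, 2 and 1 were called, namely Cyp11a1 in pachynema (0.414) and Lhcgr in pachynema (0.293) and diplonema (0.294), and Star, Cyp17a1, Hsd3b1 and Insl3 were called in none. Of 6 macrophage markers, 1, 0 and 0 were called, the 1 being Lyz2 (0.38). The part of these other cells in the members' calls was not tested.

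**Figure D4:**
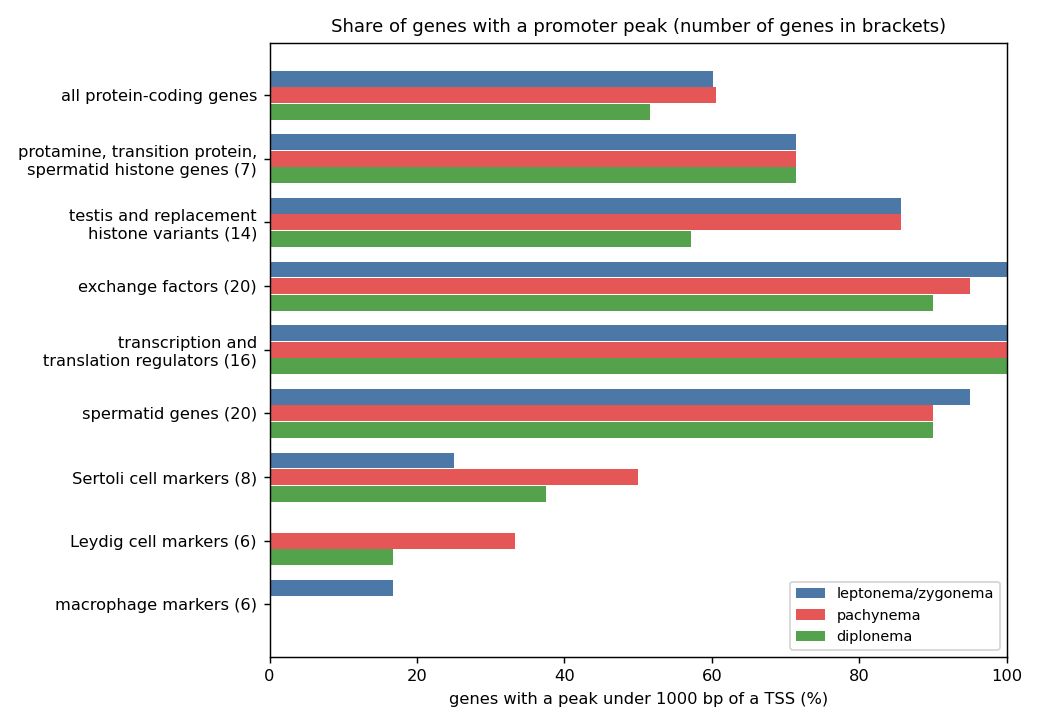
Share of genes with a dREG peak under 1000 bp of a TSS (x axis, %) for all protein-coding genes, the 7 members and the fixed gene lists (number of genes in brackets), 1 bar for each substage list. The members stand at 5 of 7 in every list beside 60.2%, 60.5% and 51.6% of protein-coding genes, and markers of Leydig cells and macrophages stand lowest.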

How the data were processed

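The authors removed duplicates by molecular identifier, trimmed reads with cutadapt, mapped them with BWA (mm10 with ribosomal RNA sequence added), merged 4 libraries per substage and ran dREG with default settings (version not given in the sources used here). The deposited lists give each peak's position, a dREG score (0.231 to 1.632, not scaled between lists) and a p-value that the authors deposited without saying whether it is adjusted. The p-value did not follow the score: 6214 of 17073 leptonema/zygonema peaks scoring under 0.4 had a p-value of exactly 0.

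Distances ran from the nearest peak edge to the TSSs of GENCODE M21 (GRCm38). A substage first calling a gene is the earliest list with a peak under 1000 bp. The members and lists were chosen with earlier results of these data known. The genes named are the members, genes with a TSS nearer to a member's peak, up to 6 genes per fixed list in list order and by category called, and the 2 protein-coding genes closest in rank to each called member. H2al3 and Hist3h2ba, named to complete a count, the highest-scoring spermatid markers and the spermatogonial and somatic markers were named after their values were seen. Alternatives were a stricter score or p-value, lists of equal length, peak centres, other TSS sets, assignment of a peak to its nearest TSS, and other distances and overlaps. In tests on simulated data, distance searches gave 0 wrong answers in 32000, planted distances 0 in 286 and motif scans 0 in 2800. Python 3.11.15, numpy 2.4.6, pandas 2.3.3 and matplotlib 3.10.9 were used. The planned description of protein sequences was not made, as none were used here.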

Additional observations from a re-analysis of the deposited data

How the results depend on the processing

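Across the alternatives 86 counts were recomputed. Of these, 69 equalled the main value and the rest stayed within 1.5 times of it, the tolerance used. For most counts this small the loss of a gene stays within that tolerance, so keeping within it shows little. Among the counts that changed were the members called in no list (2 to 3 with RefSeq TSSs or with a peak required to cover the TSS). The peaks shared between lists also changed (23 to 21 with an overlap of 50%). The calls of Prm1, Tnp1, Hils1 and H1fnt in leptonema/zygonema held under every alternative run. Prm2 lost its call with RefSeq TSSs and when a peak had to cover the TSS, which left 4 of 7 members in each list. The call of Tnp2 under 5000 bp in leptonema/zygonema was lost with a dREG score of at least 0.5, a p-value of at most 0.01 and lists of equal length (5 of 7), and in all 3 lists when a peak counted only for its nearest TSS. No paired analysis was possible because the lists were called on merged libraries and carry no replicate columns, which also means that leaving out a replicate could not be run. The depth behind a list was not analysed here, so a missing peak at Prm3 or Tnp2 says only that none was called.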
